A study of Drosophila melanogaster with 4 samples.

Results

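SoxN (SoxNeuro, locus tag CG18024) encodes a group B Sox transcription factor, and the Homothorax binding recorded around it in Drosophila melanogaster embryos is described here. The stretch examined is 2L 8780000 to 8890000 on FlyBase release 5, and every peak whose midpoint falls in these 110 kb was taken. They number 43 of the 6207 peaks in the authors' table, and 43 of the 1376 on arm 2L. The stretch was selected on the peak numbers and scores of this same table, so its peak number, cover and scores are a description and carry no test.

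Whole embryos were profiled by chromatin immunoprecipitation and sequencing of the recovered DNA (ChIP-seq). They were labelled 0 to 8 h, and their strain is Y cn bw sp, the same in all libraries, with the sex unstated. Its visible markers are bw[1], cn[1], sp[1] and y[1], and the labels further list CG33964[R4.2], GstD5[1], Gr22b[1], Gr22d[1], LysC[1], MstProx[1], Rh6[1], lab[R4.2] and oc[R3.2]. The ChIP group holds 2 libraries made with a crude guinea pig polyclonal serum raised against full-length His-tagged Homothorax, and the control group holds 2 libraries of input DNA. The laboratory protocol opens with a later laying window, which starts where the stage label ends and so does not overlap it. The stage label was used, but which of them holds could not be settled. Whole embryos mix all tissues, so a peak cannot be given to the nervous system or to any other tissue. The table gives 1 start, end and score per peak for the whole series, so no value belongs to a single library, no replicate error exists, and the read depth behind each value is unknown. The sources used here do not say what the score measures, so differences between scores stand on the authors' own scale.

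Sox proteins bind DNA through an HMG box and bend it. SoxN is made in the neuroectoderm of the early embryo, where it acts beside its relative Dichaete in the formation of neural stem cells (neuroblasts), and it has a later role in patterning the epidermis. Homothorax is a TALE homeodomain protein that brings its partner Extradenticle into the nucleus. The pair binds DNA with and without Hox proteins, and Homothorax is itself made in the developing nervous system and epidermis. The question addressed is where in the surroundings of SoxN the serum enriched DNA.

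In the gene table at hand, which describes release 6, SoxN is the only protein-coding gene between CG42710 and CG32986. Before CG42710 come LManVI, LManV, LManIV and LManIII, named as lysosomal alpha-mannosidases, and after CG32986 come CG32987, CG32988, CG32983, CG9483, CG42713 and CG34398. A long non-coding RNA gene, lncRNA:CR45365, and an antisense RNA gene, asRNA:CR45260, follow SoxN directly in that order. Because the peaks are on release 5, only the order of genes is used, and no peak is placed in a gene, exon, intron or UTR. Whether a peak acts on SoxN or on a neighbour was not tested.

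Homothorax binding in the stretch was led by 1 compact peak, 1 group of broad peaks and 1 further group at the far end. The highest score, 183.96, belonged to a peak of 1335 bp at 2L 8824736 to 8826070. It held rank 55 in the whole table. The next 2 scores were well below it and close to each other, 106.44 at 8841213 to 8845053 and 106.02 at 8851350 to 8853282. No error can be attached to a single score, so the order of those neighbouring ranks is descriptive.

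**Figure D1:**
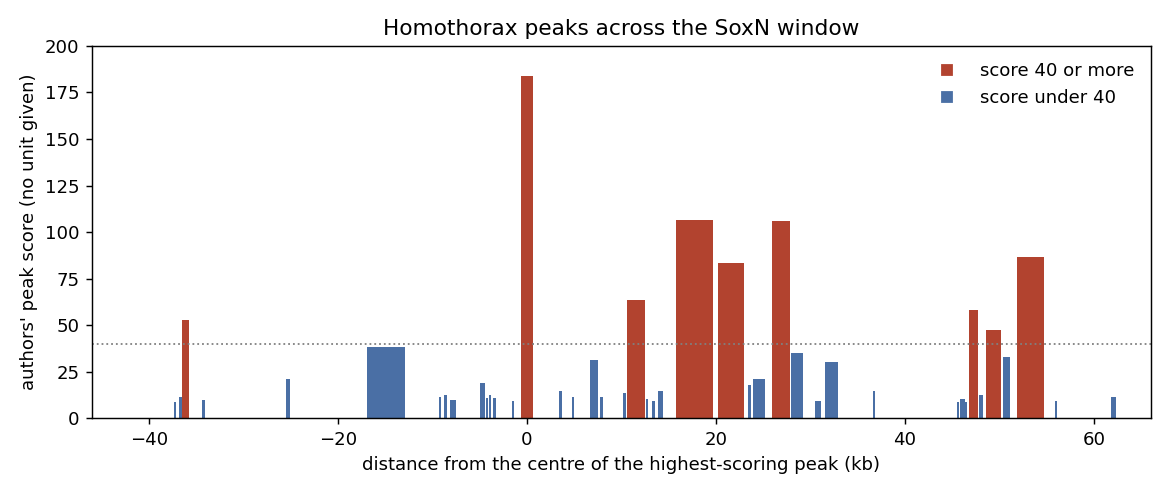
Homothorax peaks in the SoxN window. The x axis is the distance in kb from the centre of the highest-scoring peak, in the direction of rising release 5 positions, and the y axis is the authors' peak score. Each bar spans the width of 1 of the 43 peaks. The dotted line marks a score of 40, which 9 peaks reach, and the tallest bar, 183.96, stands before the group of broad bars.

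Of the 43 peaks, 9 (20.9%) scored 40 or more, where 18.1% of the 5894 peaks on the 6 assembled arms (4, X, and both arms of chromosomes 2 and 3) did so. At 100 or more were 3 (6.98%), against 4.53% on the arms. With 9 and 3 peaks, neither share is read as a difference from the arms. At the other end, 25 peaks (58.1%) scored under 15, against 44.9% on the arms. The median score was 13.54 (quartiles 10.76 and 34.05), below the 16.54 of the arms (quartiles 11.29 and 30.24). Many low peaks beside fewer high ones were thus seen in the stretch as on the arms. The lower median of the stretch stood beside a higher upper quartile.

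The group called broad here, 4 peaks at 40 or more with widths of 1908 to 3841 bp, lay between 11.5 and 26.9 kb after the highest peak, measured between centres. Width alone did not set it apart, since the widest member, 4031 bp, and a peak of 2885 bp lay elsewhere in the stretch. It began with a peak of 1908 bp at 8835995 to 8837902, which scored 63.63. The next, at 8841213 to 8845053, was 3841 bp wide with the 106.44 already given. It was followed after 626 bp by a peak of 2656 bp at 8845680 to 8848335 with a score of 83.50. The group ended with the 1933 bp peak that scored 106.02. These 4 peaks and the highest one made up all members at 40 or more in the middle of the stretch.

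A separate group at the far end opened 45.6 kb after the highest peak, beyond the longest gap between members, 8.64 kb. Its highest peak, at 8877253 to 8880137, was 2885 bp wide and scored 86.63, the fourth value of the stretch. Before it came a 927 bp peak at 8872199 to 8873125 with a score of 58.03 and a 1599 bp peak at 8874005 to 8875603 with a score of 47.30. The group held 9 peaks over 10.5 kb, of which 73.8% lay inside peaks. The middle of the stretch, 53.8 kb at 8808513 to 8862277, was 49.7% covered, but 13.5 kb of it, at 8841213 to 8854674, was 84.1% covered. That 13.5 kb is formed by joining peaks at gaps of up to 1 kb. Joined in the same way, 9.22 kb of the far group, at 8870916 to 8880137, was 82.2% covered. Which of the far group and the middle was more fully covered thus depends on the length compared.

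On the other side, 36.1 kb before the highest peak, a single peak reached 40. It lay at 8788960 to 8789611, was 652 bp wide and scored 52.80. The 2 peaks just before it were low, 8.53 for the first member of all, at 8788025 to 8788262, and 11.29 for the next. The tenth score of the stretch, 38.15, belonged to the widest member, 4031 bp at 8808513 to 8812543.

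The lowest scores came from narrow peaks beside larger ones. The lowest was 8.49, for a peak of 223 bp at 8871797 to 8872019, 179 bp before the peak that scored 58.03. The second lowest was the first member, and the third was 8.91, for 271 bp at 8870916 to 8871186, the start of the far group. The last member, at 8887211 to 8887702, scored 11.61. The nearest peak before the stretch was centred 18.3 kb from its edge, at 8761445 to 8761862, and scored 15.80. The nearest after it was centred 60.2 kb from the edge, at 8949835 to 8950583, and scored 20.90.

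Cover was uneven along the stretch. In pieces of 10 kb, the share inside peaks was 4.04% at 8.79 to 8.80 Mb, 75.3% at 8.84 to 8.85 Mb, 2.42% at 8.86 to 8.87 Mb and 74.4% at 8.87 to 8.88 Mb. The piece with the highest peak, 8.82 to 8.83 Mb, was 32.7% covered by 7 peaks with a median score of 12.61. The highest score and the densest cover were therefore in different pieces. The most peaks, 8, were in the pieces 8.83 to 8.84 Mb and 8.87 to 8.88 Mb, whose top scores were 63.63 and 86.63.

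**Figure D2:**
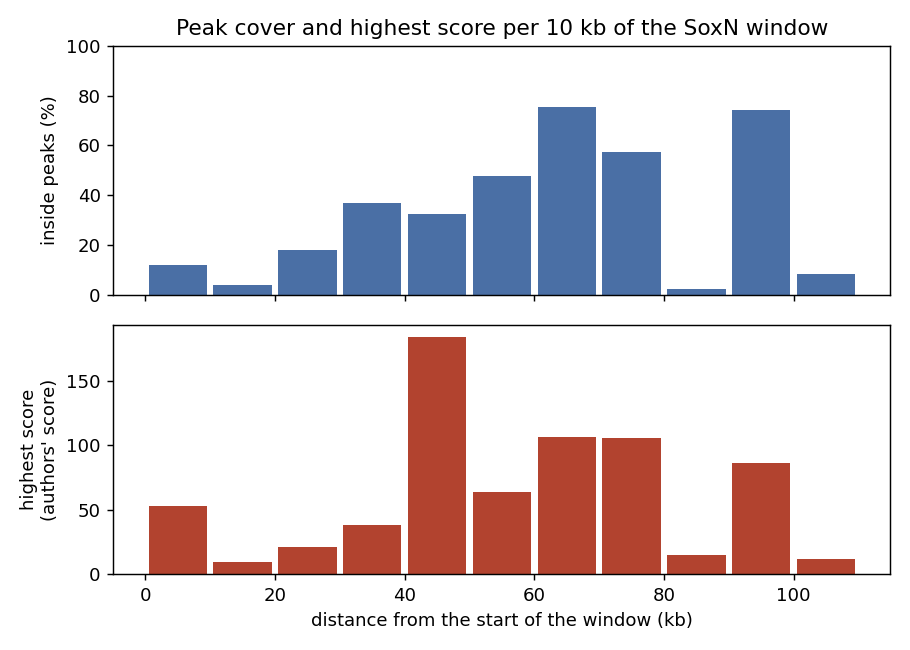
The SoxN window in 11 pieces of 10 kb, placed by distance in kb from the start of the window. The upper bars give the percent of each piece inside peaks and the lower bars the highest score (authors' score) of a peak centred there. Cover is highest 60 to 70 kb and 90 to 100 kb from the start, at 75.3% and 74.4%, whereas the highest score, 183.96, lies 40 to 50 kb from the start.

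Together the 43 peaks covered 36.9 kb, or 33.6% of the stretch. Widths ran from 201 to 4031 bp with a median of 436 bp, against a median of 484 bp on the arms. Over 2 kb were 4 peaks (9.30%), against 6.79% on the arms. The 3 widest held 29.1% of the covered bases, and the 9 peaks at a score of 40 or more held 48.0%. About as many bases thus lay in the 34 lower peaks (19.2 kb) as in the 9 higher ones (17.7 kb). On the arms, peaks under 40 held 2539.7 kb and peaks at 40 or more held 2057.6 kb. The split is therefore not read as particular to the stretch.

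Wider peaks had higher scores in the stretch, with a Spearman rho of 0.79 over the 43 peaks against 0.82 over the 5894 on the arms, both given as descriptions of peaks of 1 table. To compare peaks of like width, each log2 score was set against the median log2 score of the 61 peaks on the arms nearest in width. On this scale the members had a median of -0.03, and 19 of 43 (44.2%) lay above the trend, against 49.3% of peaks on the arms. Within 1 log2 unit of the trend lay 38 of 43 (88.4%), against 90.8% of peaks on the arms. The exceptions were 2 above and 3 below, and the highest and the widest member were among them. These differences depend on the unknown scale of the score.

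The highest peak was compact for its score. It lay 2.07 log2 units above the trend, and 18 of the 5894 peaks on the arms lay further above it. Among 242 other peaks within 10% of its width, the median score was 41.9, and 2 scored higher. The peak was picked as the highest score of a stretch selected on scores, so these high places follow partly from the pick. The peak of 652 bp that scored 52.80 was the other member over 1 unit above the trend, at 1.17.

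The widest member showed the opposite. With a score of 38.15 it lay at -1.51 log2 units from the trend, and of 43 other peaks within 10% of its width, 35 scored higher. Their median was 106.44. It was the widest of all 4830 peaks on the arms with a score under 40, a property noticed only from its values. That place was close to a tie, since the next widest were 4011 and 4009 bp, and its score lay just under the limit. Of the 400 peaks over 2 kb on the arms, 15 lay further below the trend. The next widest member, with 3841 bp and 106.44, lay at 0.07 on the same scale, and the third, with 2885 bp and 86.63, at 0.39. So the 2 widest members, alike in width at 4031 and 3841 bp, differed in score.

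**Figure D3:**
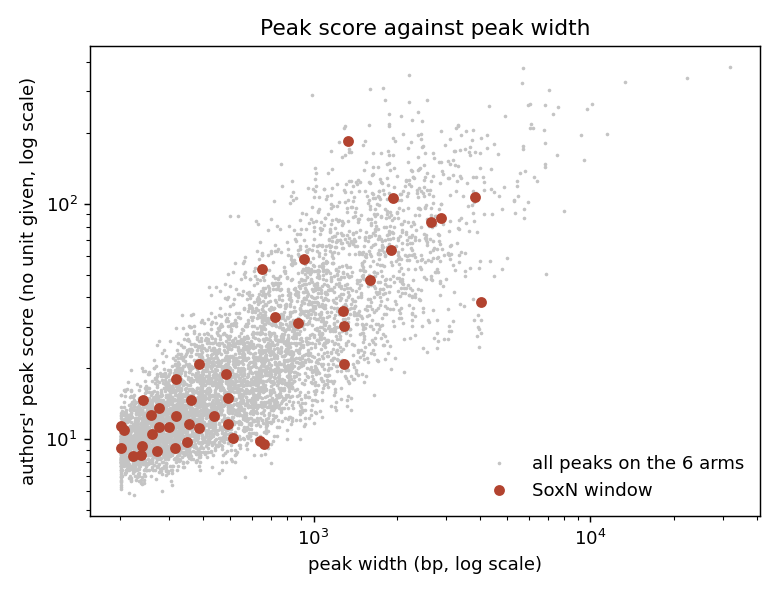
Peak score against peak width, both on log scales, with width in bp and the authors' score without a unit. Grey points are the 5894 peaks on the 6 arms and red points the 43 of the SoxN window. The red point at 1335 bp and 183.96 lies above nearly all grey points of its width, and the one at 4031 bp and 38.15 lies towards their lower edge.

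Most members had a close neighbour. A gap of at most 1 kb to the nearest peak was found for 37 of 43 (86.0%), against 62.1% on the arms, and a gap of at most 200 bp for 18 (41.9%), against 26.9%. All 9 members at 40 or more had a peak within 1 kb, a distance met by 69.6% of such peaks on the arms. Of the 34 lower members 28 did, against 60.4% of such peaks on the arms. The stretch was chosen around a dense group of peaks, so a surplus of close neighbours is part of the choice. The median gap between consecutive members was 464.5 bp, and the shortest was 46 bp.

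Members at 40 or more were not evenly spaced. Their 8 centre-to-centre distances ran from 2.14 to 36.1 kb with a median of 5.75 kb, over a span of 89.4 kb. The 2 longest, 36.1 and 20.3 kb, set off the single peak at the start and the group at the far end. The highest peak itself stood 11.5 kb from the next peak at 40 or more.

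With consecutive peaks joined where the gap between them was at most 5 kb, the stretch fell into 5 sets. The longest held 28 peaks over 53.8 kb at 8808513 to 8862277, with 49.7% inside peaks, and ranked 13 of 1981 such sets on the arms by number of peaks and 10 by length. The far group followed with 9 peaks, then 4 peaks at the start, and 2 peaks stood alone. Joined at gaps of up to 10 kb, all 43 formed 1 set of 99.7 kb that ended exactly at the first and last member. The stretch was chosen for its dense peaks, so high ranks of its sets are part of the choice. By number of peaks, the rank of the longest set was 20 of 2755 at gaps of up to 2 kb and 10 of 1483 at up to 10 kb.

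The stretch was placed to hold this group of peaks, so long gaps and sparse flanks at its edges are part of the choice. The gap before the first peak of the group was 26.2 kb, and 15.8% of the 5888 gaps on the arms were longer. The gap after its last peak was 62.1 kb, and 8.36% were longer. The 110 kb before the stretch held 5 peaks with a top score of 28.36 and the 110 kb after it held 2 with a top score of 20.90. Neither flank held a peak at 40 or more, and their cover was 1.99% and 0.97%, against the 33.6% within.

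Against other stretches of the same length, the surroundings of SoxN ranked high in number and cover but not in typical score. Of 1056 other windows of 110 kb tiled over X and the 4 long autosome arms, 6 held more than 43 peaks, and the median window held 3. Cover was higher in 11 windows, 9 windows had more than 9 peaks at 40 or more, and 36 of the 789 windows with any peak had a higher top score. By contrast, 580 of those 789 had a higher median score. These places describe a stretch that was picked for its peaks and placed to hold them, while the tiled windows can divide a group.

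The tiled windows with the most peaks differed in median score from the SoxN stretch. The 13 of them with 35 or more peaks had median scores of 15.30 to 24.74, and none was below the 13.54 of the SoxN stretch. Their top scores ran from 37.65 to 375.76 with a median of 208.74, and 7 of the 13 exceeded 183.96. Their cover ran from 21.6% to 64.4%, and 8 exceeded 33.6%. The SoxN stretch therefore fell within their range in top score and cover and below it in median score, a difference for which no test could be made. It depends on the limit of 35 peaks, since windows at 3L 15.62 to 15.73 Mb with 33 peaks and at 3R 25.08 to 25.19 Mb with 30 peaks had median scores under 13.54. The difference also holds only for peaks as listed. With peaks closer than 1 kb merged, the median score of the SoxN stretch was 25.63, and the windows are not compared here under that setting.

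**Figure D4:**
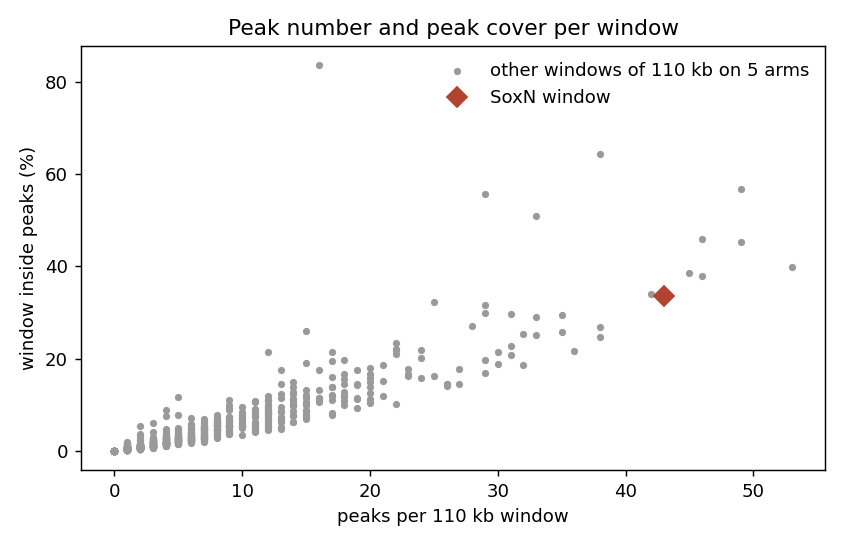
Number of peaks (x axis) and percent of bases inside peaks (y axis) for windows of 110 kb. Grey points are 1056 tiled windows on X and the 4 long autosome arms, and the red diamond is the SoxN window with 43 peaks and 33.6% cover. It lies in the sparse upper right of the plot, on the general trend of cover with peak number.

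The 3 tiled windows nearest in rank of peak number, cover and median score together, among the 789 with a peak, were on 3L and 3R. The window at 3L 15.62 to 15.73 Mb held 33 peaks, was 25.2% covered and had a median score of 13.28 and a top score of 131.51. It had 9 peaks at 40 or more and 3 at 100 or more, the same numbers as at SoxN. The window at 3R 25.08 to 25.19 Mb held 30 peaks with a median of 13.16 and a top score of 111.26, and 27 peaks lay at 3R 2.53 to 2.64 Mb, with a median of 14.29 and a top score of 259.05. All 3 held fewer peaks and less cover than the SoxN stretch.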

How the data were processed

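ChIP-seq of Homothorax was analysed from 1 peak table of the whole series. Per the file headers, coordinates are on FlyBase release 5 and peaks were written by MACS, and the authors deposited 1 score per peak, whose meaning the sources used here do not give. The submitters' processing notes name BDGP5, CASAVA (1.7.0.2 and 1.7.0.3), BWA and MACS2. They give neither the calling threshold nor whether replicates were pooled. Scores were used within this list only. No genome sequence was used, and a release 6 gene table gave names and gene order only.

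Width is end minus start plus 1 bp. Python 3.11.15, numpy 2.4.6, pandas 2.3.3, scipy 1.17.1 and matplotlib 3.10.9 were used. The trends of score on width were tested on simulated peaks, and the joining and merging of peaks on a short made-up list. The other calculations were not tested in this way. The peaks named are the 10 highest, 3 widest and 3 lowest by score or width, the first, the last and the nearest outside; others were named after their values were seen. The stretch, thresholds and lists were chosen with earlier results of these data known. Motif and protein descriptions that were planned were not made, for lack of sequence.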

Additional observations from a re-analysis of the deposited data

How the results depend on the processing

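All values come from 1 table without replicates, so a result counted as moved when it changed by more than 1.5 times, and this held for 7 of 15 alternatives. Keeping the highest-scoring 50% of the table left 18 peaks in the SoxN stretch, with a median score of 42.72. With peaks closer than 1 kb merged and given the highest score of their parts, 16 remained with a median score of 25.63, and 5 of them scored 40 or more. These changes follow from how the alternatives are built, the first by dropping low peaks and the second by joining peaks, high ones with each other included. The longest set of joined peaks held 13 peaks at gaps of up to 2 kb and 43 at up to 10 kb, instead of 28 at 5 kb. Cover stayed between 25.8% and 41.2%. The share of tiled windows with fewer peaks was 99.4% with windows offset by 55 kb and 99.0% on 2L alone, and counting any overlap with the stretch gave the same 43 peaks. These outcomes were largely fixed in advance. Shares so close to their upper limit cannot rise by 1.5 times, and the nearest peaks outside were centred 18.3 and 60.2 kb from the edges. A straight-line trend moved the median score for width from -0.03 to -0.02. No paired analysis was possible because each peak has 1 value for all libraries, which also kept single replicates from being left out. Read depth is unknown, so no depth limit could be set.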

Other observations

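Merging at 1 kb joined 6 peaks of the middle of the SoxN stretch into 1 region of 13.5 kb, at 8841213 to 8854674, of which 84.1% lay inside the listed peaks. It ranked 22 by length among the 3436 regions so formed on the arms. In the far group, 8 of the 9 peaks merged into 1 region of 9.22 kb, at 8870916 to 8880137, which ranked 54, and the ninth stayed separate. Both ranks belong to a stretch that was chosen for its dense peaks. The highest peak merged with 1 neighbour only, into 2234 bp.

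Scores recurred in the table. The 5894 peaks on the arms held 2327 distinct scores, and 75.6% of peaks shared their score with another. Of the 43 members 33 did, among them the highest: 183.96 was also the score of a 1529 bp peak on 3R at 12487130 to 12488658 and of a 1970 bp peak on X at 12100450 to 12102419. Whether shared scores come from whole read numbers behind the score was not examined.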
